A study of Macaca mulatta with 4 samples.

Results

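The collagen genes of the fetal rhesus cerebellum were followed in single-nuclei RNA sequencing. All rows of the gene list whose symbol is COL, a number, A and a number were taken, which gave 33 of 30807 listed genes. Nuclei came from flash-frozen cerebellar hemispheres and part of the vermis of 4 rhesus macaque (Macaca mulatta) fetuses, 1 library per fetus. Both Control fetuses, a female and a male, had no intervention and were at 130 days of gestation. The LPS fetuses had received 1 mg of lipopolysaccharide (LPS, a component of bacterial cell walls that causes inflammation) into the amniotic fluid 5 days earlier, as a model of chorioamnionitis, and were at 131 days (female) and 133 days (male). The labels name no other treatment or genotype. Values for the libraries are given throughout in the order Control female, Control male, LPS female and LPS male.

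Collagens are secreted or membrane proteins of 3 chains wound around each other, and a given collagen type can need chains from several genes. Fibrillar collagens (types I, II, III, V and XI) form the fibrils of connective tissue such as the meninges. FACIT collagens sit on the surface of fibrils, type VI forms beaded filaments, and type IV forms the network of basement membranes under endothelium and at the pial surface of the brain. A few collagens, such as COL25A1, are known mainly from neurons. In the developing cerebellum the external granule layer lies directly beneath the pial basement membrane and the meninges.

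The libraries held 61665690, 34282015, 41642819 and 56935290 UMIs (unique molecular identifiers, 1 for each captured RNA molecule). Barcodes that held 500 genes or more and no more than 5% of mitochondrial UMIs, called nuclei here, numbered 9250, 8621, 6890 and 7804, or 32565 in all. Between 16 and 21 barcodes were shared by any pair of libraries. The female libraries were deeper than the male ones, with median UMIs per nucleus of 4508, 1882, 4063 and 2308.5, and had more mitochondrial UMIs, at a mean of 0.263, 0.0212, 0.211 and 0.0315%. Sex, depth and mitochondrial share therefore cannot be told apart, and differences within each sex are given beside the pooled ones. Over all nuclei, 30.1% of the 16135 genes tested were higher in both female libraries than in both male ones and 37.6% were lower, while 7.11% were higher and 5.51% lower in both LPS libraries than in both Control libraries. A cluster of 2553 nuclei with a median of 765 UMIs had no name, and 1918 of its nuclei were in the LPS male library. Another unnamed cluster of 856 nuclei, of which 65.7% were called doublets, held 5.23% of all collagen UMIs. Empty droplets held nearly as large a share of collagen UMIs as nuclei did, at 928, 1358, 1023 and 985 CPM (UMIs per 1000000 UMIs of the class and library) against 993, 1466, 1197 and 1105 CPM. The range of a gene in the empty droplets of the 4 libraries, taken as the background of free RNA, is given for many of the genes below. These droplets had a median of 300, 196, 226 and 496 UMIs, the most in the LPS male library. Whether they hold only free RNA was not tested.

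Clusters were made and named here without any collagen gene. The marker lists drew in part on marker tables of the study, made from the same libraries. In those tables the granule stage called committing had collagen genes, so high collagen levels in that stage are not independent of its naming. The committing cluster had 1 of 11 measured granule lineage markers raised and was named from its stage list. Fibroblast-like nuclei numbered 129, 203, 147 and 32 and came from a cluster with 12 of 13 measured fibroblast markers raised, with DCN (decorin) at 1013, 697, 970.5 and 535 CPM. Endothelial-like nuclei numbered 70, 73, 41 and 28, with FLT1, the VEGF receptor of endothelium, at 2501, 3648, 3169 and 2434 CPM. Only 31 nuclei (7, 9, 8 and 7) were mural-like (pericytes or smooth muscle), with PDGFRB at 695, 885, 832 and 685 CPM, and their levels rest on few UMIs. The granule lineage, the main neurons of the cerebellum, numbered 6758, 6005, 5077 and 4328 nuclei. Of the fibroblast-like nuclei 12.5% and of the endothelial-like nuclei 8.02% were called doublets, and granule lineage markers summed to 1507 to 2797 and 772 to 1222 CPM in them. The part of doublets in the levels was not tested beyond removing them, which left the class of highest mean level the same for all 20 members ranked here.

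The 33 collagen genes had 135941 UMIs in nuclei. COL4A5, COL25A1 and COL4A2 held 49.3% of them, and the 20 genes with the most UMIs held 97.3%. As CPM, the 33 genes together reached 8940.0, 11789.7, 7971 and 7579.6 CPM in fibroblast-like nuclei, 5082, 10532, 4994 and 7692 CPM in mural-like, 2619, 5719, 3036 and 7313 CPM in Purkinje-like, 2461, 3382, 2649 and 3024 CPM in endothelial-like and 2851, 2483, 3208 and 2847 CPM in committing granule nuclei. The granule lineage as a whole stood at 865, 969, 1079 and 969 CPM, but held 54% of all collagen UMIs and was 22168 of the 32565 nuclei. Of the 20 genes, 11 had their highest mean level in fibroblast-like nuclei, 3 in Purkinje-like nuclei, 2 in committing granule nuclei, 2 in the small choroid or ependymal cluster and 1 each in Golgi-like and maturing granule nuclei. These orders are descriptions, since the library values of the highest class often overlapped those of the next, as for COL18A1 in fibroblast-like and mural-like nuclei and for COL11A1 in fibroblast-like nuclei and the oligodendrocyte lineage.

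**Figure D1:**
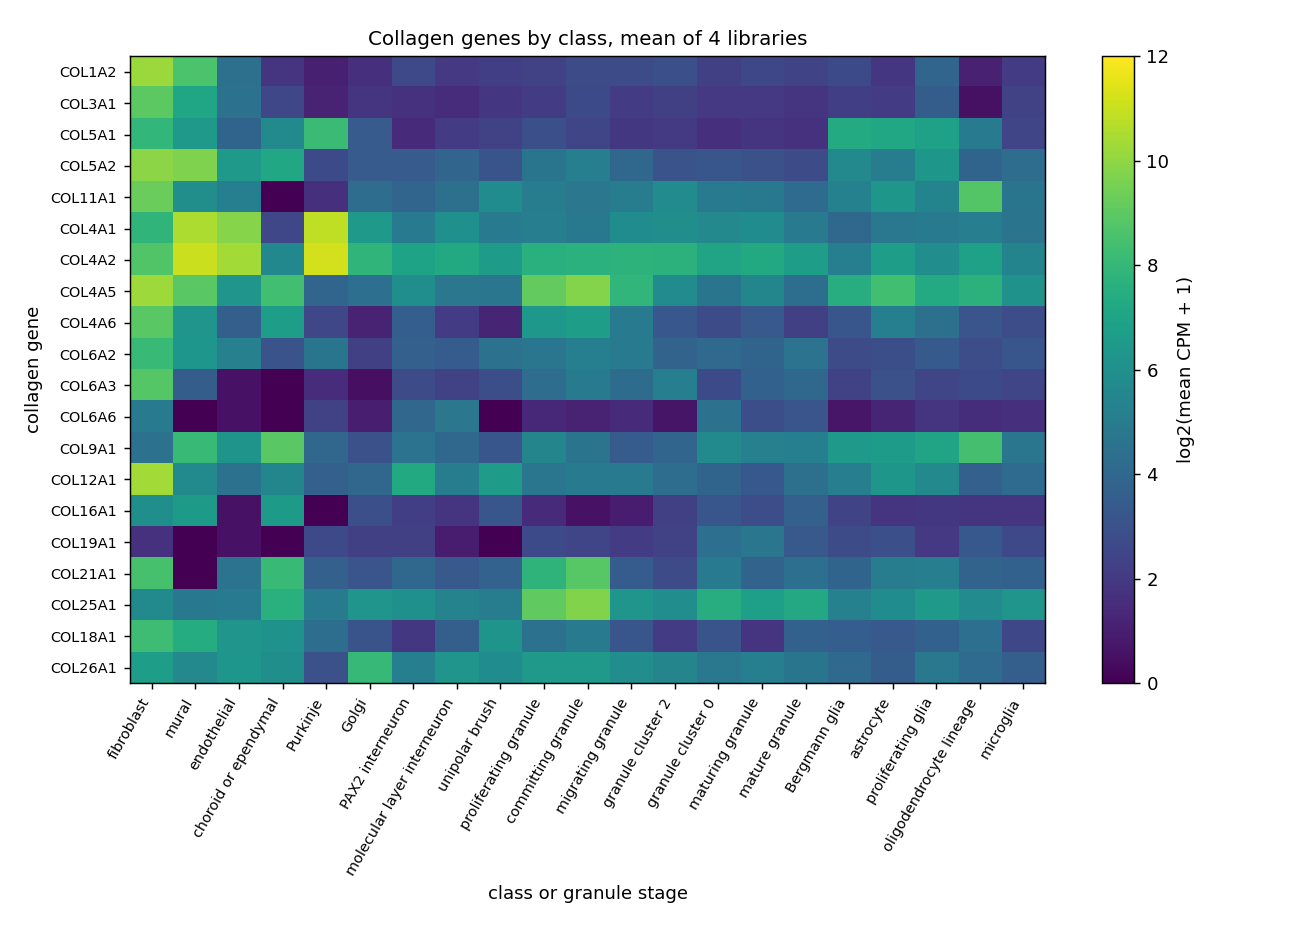
Mean level over 4 libraries of the 20 collagen genes with the most UMIs (rows) in 21 classes and granule stages (columns), as log2(mean CPM + 1) on the colour scale. The left column, fibroblast-like nuclei, is bright for most genes, while COL4A1 and COL4A2 are brightest in Purkinje-like, mural-like and endothelial-like nuclei and COL25A1 in committing and proliferating granule nuclei.

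Among the fibrillar collagens, the genes of type I stood out in fibroblast-like nuclei. COL1A2 was at 1177, 1576, 952 and 965 CPM there and at 0.443 to 8.12 CPM in the granule lineage, with 4.13 to 128 CPM in empty droplets. COL1A1, the partner chain, which is needed at a higher dose in the type I molecule, was at 98, 154, 102 and 105 CPM (252 UMIs) and at 0.148 to 1.4 CPM in the granule lineage, with 1.03 to 25.1 CPM in empty droplets. UMIs from nuclei are not corrected for gene length or intron content, so the levels of 2 genes are not compared with each other. The mural-like values of COL1A2, 109.7, 463, 39.6 and 914 CPM, spread widely and rest on 27 UMIs.

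COL3A1, of the fibrils that accompany type I, was at 651, 616, 439 and 332 CPM in fibroblast-like nuclei and COL5A2, of the type V chains that start fibrils, at 1018, 1002, 972 and 835 CPM. Empty droplets had 3.62 to 89.3 CPM of COL3A1 and 11.4 to 70.2 CPM of COL5A2. Both stayed at or below 129 CPM in every endothelial-like library, and in mural-like nuclei COL3A1 was at 146, 84.3, 79.3 and 228 CPM and COL5A2 at 658, 843, 674 and 1066 CPM (69 UMIs). In endothelial-like nuclei, 76 of 88 COL5A2 UMIs were in sub-cluster 3 (32 nuclei), which was led by mural genes such as RGS5 and ABCC9 and stayed in the class. COL5A1, the partner of COL5A2, had another pattern. It was at 198, 386, 143 and 259 CPM in fibroblast-like, 43.9, 627, 166 and 318 CPM in Purkinje-like, 99.4, 252, 87.9 and 209 CPM in Bergmann glia-like and 100.2, 189, 67 and 234 CPM in astrocyte-like nuclei, where COL5A2 was at 0 to 8.75, 43.7 to 56.5 and 25.9 to 36.9 CPM. COL5A1 was higher in both male libraries than in both female ones in all 4 of these classes, and also in the granule lineage and over all nuclei. Its level in empty droplets was 2.57 to 31.3 CPM.

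COL11A1, a fibrillar chain best known from cartilage, varied widely between libraries in the fibroblast-like class, at 471, 902, 989 and 105 CPM. Re-clustering split the class into sub-clusters, of which 4 held 99 nuclei or more. In sub-cluster 2, led by ATP13A5 and the transporter genes SLC13A3 and SLCO1A2 (15, 62, 39 and 0 nuclei), COL11A1 was at 1775, 1769 and 1727 CPM in the 3 libraries that had it. Sub-cluster 1, led by SUSD4 and EDN3, had 148, 270.0, 123 and 92.9 CPM, and the ranges of these sub-clusters did not overlap. Sub-cluster 0, led by C7 and FGF10, overlapped both and spread from 156 to 1881 CPM. COL4A5 went the other way and was at 1935, 1367, 1587 and 1299.9 CPM in sub-cluster 1 against 1053, 742 and 852 CPM in sub-cluster 2. Sub-cluster 3 was led by neuronal genes, and 55.6% of its nuclei were called doublets.

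The FACIT collagen COL12A1, which binds type I fibrils, was at 1332, 1917, 996 and 989 CPM in fibroblast-like nuclei. Its next class was PAX2 interneuron-like nuclei, young inhibitory neurons, at 115, 158, 135 and 214 CPM, above the 26.9 to 80.3 CPM of empty droplets. Of the beaded filament chains, COL6A3 was at 335, 945, 259 and 276 CPM and COL6A2 at 243, 288, 187 and 405 CPM in fibroblast-like nuclei, against 6.72 to 45.4 and 10.1 to 97.6 CPM in empty droplets. COL6A1, listed by identifier only and so not a member, was at 61.6, 62.3, 23.7 and 73 CPM there (107 UMIs). COL18A1, the basement membrane collagen from which endostatin is cut, was at 240.2, 629, 156 and 219 CPM and COL6A6 at 42.7, 31.2, 13.9 and 32.4 CPM, against 5.4 to 11.2 and 1.18 to 8.64 CPM in empty droplets. COL6A6 was nearly as high in molecular layer interneuron-like nuclei, at 34.5, 18.1, 20.9 and 32.1 CPM, and these ranges overlapped. COL16A1 had its highest mean in the 39 choroid or ependymal nuclei (2, 3, 21 and 13), at 0, 109, 9.79 and 246 CPM from 15 UMIs, and stood at 36.3, 138, 43.2 and 32.4 CPM in fibroblast-like nuclei.

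Against endothelial-like nuclei, 16 of the 23 collagen genes with at least 20 UMIs in these classes were higher in fibroblast-like nuclei with no overlap of the libraries, where 12.1% of all 10977 such genes were. Another 3, COL4A1, COL4A2 and COL9A1, were lower without overlap, where 9.95% of all genes were. Empty droplets had 23.8 to 56.1 CPM of COL9A1. With only endothelial sub-clusters 0 and 2 and fibroblast sub-clusters 0 and 1 kept, a choice made after seeing the data, COL9A1 overlapped between these classes. It was then at 8.38, 27.1, 14.3 and 0 CPM (9 UMIs) in endothelial-like and 36.3, 24.5, 14.7 and 12.6 CPM in fibroblast-like nuclei. Endothelial sub-cluster 1, left out there, had 47 nuclei, of which 27.7% were called doublets. The 20 UMIs were counted over both classes together, so a gene could pass through the class where it is high alone. These counts are therefore descriptions, here and for the other pairs of classes below.

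COL4A1 and COL4A2, which form the common type IV molecule of basement membranes, were high in vascular nuclei. Endothelial-like nuclei had 713, 1171, 855 and 890.1 CPM of COL4A1 and 1121, 1455, 1344 and 1276 CPM of COL4A2. Mural-like nuclei had 1024, 2569.9, 1070.1 and 1218 CPM of COL4A1 (132 UMIs) and 1389, 3707, 1348 and 1980.0 CPM of COL4A2 (186 UMIs). Every endothelial-like and mural-like library was above every fibroblast-like library, where COL4A1 was at 167, 399, 205 and 162 CPM and COL4A2 at 392, 613, 329 and 373 CPM. The empty droplets had 59.9 to 139.9 CPM of COL4A1 and 120.3 to 218 CPM of COL4A2.

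The highest mean of both genes was in Purkinje-like nuclei, the large output neurons of the cerebellar cortex (27, 54, 22 and 15 nuclei). COL4A1 was at 962, 2202, 1209.8 and 2980.5 CPM and COL4A2 at 1501, 2542, 1479 and 3738 CPM there, from 2372 and 3053 UMIs. Both were higher in both male libraries than in both female ones, and the Purkinje-like range overlapped the endothelial-like and mural-like ranges. Without the LPS male library the highest mean of both genes was in mural-like nuclei. The endothelial marker list (14 measured) summed to 29.2 to 63.4 CPM in Purkinje-like nuclei against 12050.3 to 15429.7 CPM in endothelial-like nuclei, and FLT1 was at 3.25, 2.56, 4.38 and 0 CPM. The mural list (12 measured, 10 of them found in mural-like nuclei) summed to 302 to 635 CPM against 8149 to 11459 CPM in mural-like nuclei, with PDGFRB at 0, 2.56, 0 and 0 CPM. ITPR1, a defining Purkinje gene, was at 14236, 12677, 13574 and 14723 CPM, and 1.69% of the nuclei were called doublets. Compared with the granule lineage, 4 of the 31 collagen genes with at least 20 UMIs were higher in Purkinje-like nuclei without overlap (COL4A1, COL4A2, COL5A1 and COL5A3), where 7.61% of all genes were. Another 11 were lower without overlap, where 23% of all genes were. The 20 UMIs were counted over both classes, so a gene could pass through the granule lineage alone. Purkinje-like nuclei held only 615504, 390958, 457120 and 122800 UMIs. COL1A1, COL2A1 and COL6A5, among the 11, were at 0.148 to 1.4, 0.586 to 0.935 and 0.425 to 1.77 CPM in the granule lineage. At such levels few or no UMIs fall in Purkinje-like nuclei, so lower levels of these genes cannot be told from sampling.

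**Figure D2:**
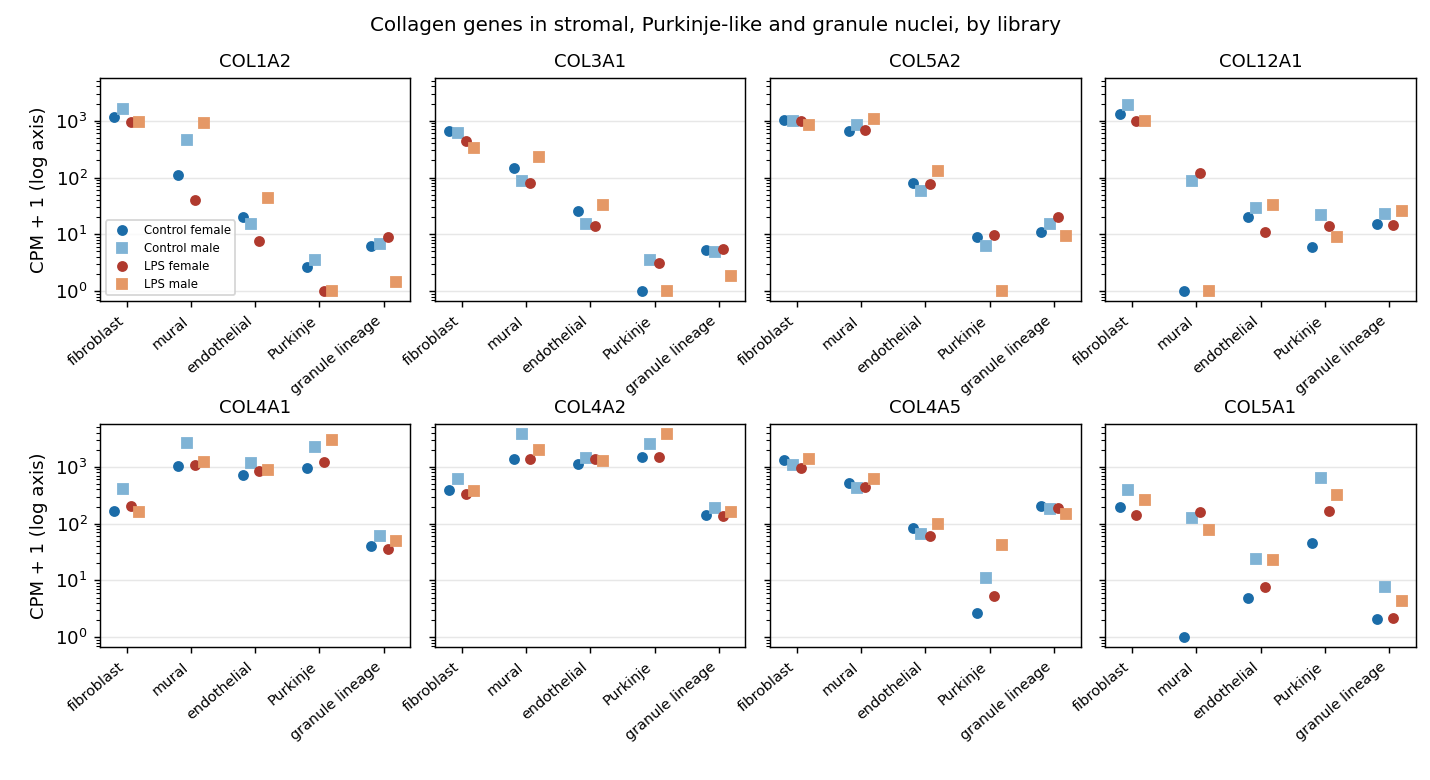
Level of 8 collagen genes as CPM + 1 on a log axis in fibroblast-like, mural-like, endothelial-like, Purkinje-like and all granule lineage nuclei, with 1 point per library (circles female, squares male, blue Control, red and orange LPS). COL1A2, COL3A1 and COL12A1 fall steeply from fibroblast-like to endothelial-like nuclei, while COL4A1 and COL4A2 stay at about 713 CPM or more in mural-like, endothelial-like and Purkinje-like nuclei of every library.

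COL4A5 and COL4A6, the chains of another type IV network, had their highest means in another class than COL4A1 and COL4A2. COL4A5 was at 1341, 1082, 970.5 and 1394 CPM in fibroblast-like nuclei and 1026, 772, 774 and 883 CPM in committing granule nuclei, with overlapping ranges. COL4A6 was at 634, 381, 427 and 527 CPM in fibroblast-like and 144, 61.4, 93.5 and 121 CPM in committing granule nuclei, without overlap. In endothelial-like nuclei COL4A5 was at 83.1, 65.3, 59.2 and 96.5 CPM and COL4A6 at 1.93, 4.66, 6.57 and 32.2 CPM, against 79.7 to 219.6 and 5.14 to 31.9 CPM in empty droplets. COL4A3 and COL4A4, the kidney and lung chains, had 378 and 113 UMIs in all nuclei. Their highest means were in mural-like nuclei, at 73.1, 0, 198 and 76.2 CPM and 0, 0, 79.3 and 0 CPM from 8 and 2 UMIs, where 1 library or more was at 0.

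Over the granule stages, from proliferating precursors through committing, migrating and maturing to mature granule nuclei, 4 collagen genes were high early. Granule clusters of 4911 and 3324 nuclei had no stage name and are left out of this course. COL25A1, a transmembrane collagen made by neurons, was at 591, 312, 675 and 599.8 CPM in proliferating and 949, 475, 1129 and 806 CPM in committing nuclei. It was at 48, 33.7, 93.9 and 128 CPM in migrating and 87.1, 60.4, 216 and 242 CPM in mature nuclei. Every library was higher in its committing than in its migrating nuclei, and the empty droplets had 95.1 to 351 CPM. COL4A5 was at 609, 464, 498 and 639 CPM in proliferating nuclei and, after the committing level given above, at 288, 215, 196 and 257 CPM in migrating and 13.6, 26.1, 10.9 and 27.3 CPM in mature nuclei. COL4A6 had the same order of stages in every library, from 144, 61.4, 93.5 and 121 CPM in committing to 5.72, 4.08, 2.18 and 3.32 CPM in mature nuclei. COL21A1, a FACIT-like collagen, was at 144, 247, 321 and 189 CPM in proliferating, 281, 519.5, 713 and 351 CPM in committing and 4.14, 9.03, 12 and 15.9 CPM in migrating nuclei. It was also at 367, 383, 409 and 299.9 CPM in fibroblast-like nuclei, and its empty droplet range was 27.4 to 78.5 CPM.

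Other members had another course. COL4A2 stayed between 163 and 264 CPM in the first 3 stages, near its empty droplet range. COL19A1, a FACIT-like collagen made by some neurons, was at 4.51, 2.36, 6.41 and 5.3 CPM in committing and 7.98, 16.3, 15.7 and 59.2 CPM in maturing nuclei, the highest being the LPS male library, without which its highest mean was in another granule cluster. The 1.93 to 10.9 CPM of COL19A1 in empty droplets covered its committing levels. Between committing and maturing nuclei, 7 of 26 collagen genes with at least 20 UMIs were higher in the committing stage without overlap (COL4A5, COL4A6, COL5A2, COL12A1, COL18A1, COL21A1 and COL25A1), where 23.2% of 13544 genes were. Another 5 (COL4A1, COL6A6, COL9A1, COL16A1 and COL19A1) were lower without overlap, where 8.51% of all genes were.

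**Figure D3:**
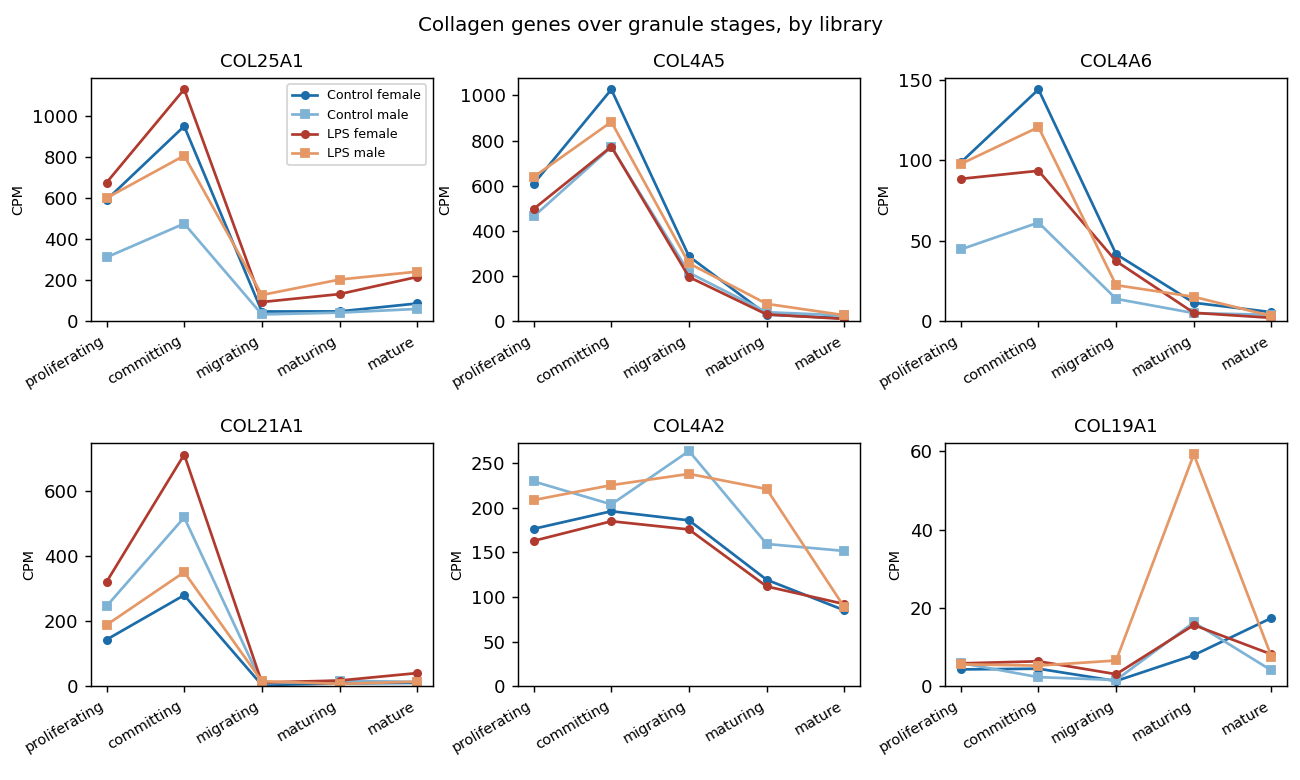
Level in CPM of 6 collagen genes in proliferating, committing, migrating, maturing and mature granule nuclei, with 1 line per library. Granule clusters without a stage name are not shown. In each library COL25A1, COL4A5, COL4A6 and COL21A1 are highest in the committing stage, while COL4A2 changes little over the first 3 stages and COL19A1 peaks in maturing nuclei of 3 libraries.

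COL26A1 had its highest level in Golgi-like nuclei, inhibitory interneurons of the granule layer, at 181, 319, 129 and 419 CPM (43, 86, 54 and 15 nuclei). Fibroblast-like nuclei followed with 56.9, 154, 150.4 and 56.7 CPM, and the ranges overlapped. COL26A1 was higher in both male libraries than in both female ones in Golgi-like nuclei and in 7 of the 8 classes tested below, the exception being fibroblast-like nuclei. In committing granule nuclei it was 1 of 5 members of 17 that were higher in both male libraries, against 34.6% of all genes.

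Among glia, Bergmann glia-like nuclei (the radial glia that guide migrating granule cells) and astrocyte-like nuclei had COL5A1, given above, and COL4A5. COL4A5 was at 168, 187, 159.5 and 197 CPM in Bergmann glia-like and 319, 392, 312 and 289 CPM in astrocyte-like nuclei, against 125, 219.6, 79.7 and 165 CPM in the empty droplets of the same libraries. Between them, 2 of 25 collagen genes were higher in Bergmann glia-like nuclei without overlap (COL4A3 and COL5A2), where 2.84% of all genes were, and 3 were lower (COL4A2, COL4A5 and COL4A6), where 4.45% were. COL4A3 had 22 UMIs in Bergmann glia-like nuclei. COL9A1 was at 52.2, 61, 36.4 and 210.3 CPM in Bergmann glia-like and 55.8, 74.7, 55.3 and 199 CPM in astrocyte-like nuclei, and the LPS male library was far above the other 3 in both.

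The oligodendrocyte lineage (124, 97, 88 and 158 nuclei) had cartilage-type chains. COL11A1 was at 663, 436, 354 and 289 CPM and the FACIT chain COL9A1 at 410.4, 420.5, 278 and 275 CPM, both above the empty droplets (24.4 to 76.7 and 23.8 to 56.1 CPM). COL9A2, a partner of COL9A1 in type IX, was at 48.2, 147, 53.8 and 86.5 CPM, its highest class. COL9A3, the other partner, listed by identifier only, was at 8.23, 12.7, 19.1 and 15.3 CPM there and at 12.6, 74, 48.1 and 42.8 CPM in Bergmann glia-like nuclei. COL9A1 had a higher mean in the 39 choroid or ependymal nuclei, at 261, 1307, 303 and 94.8 CPM, but from 53 UMIs. Against astrocyte-like nuclei, 4 of 24 collagen genes were higher in the oligodendrocyte lineage without overlap (COL9A1, COL9A2, COL11A1 and COL14A1), where 8.47% of all genes were, and 4 were lower (COL4A6, COL5A1, COL5A2 and COL12A1), where 13.1% were.

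Within the lineage the collagens differed between sub-clusters. Sub-cluster 0, led by WSCD1 and PDE7B, had 550.0, 621, 417 and 482 CPM of COL9A1 and 862, 659, 667 and 649 CPM of COL11A1. Sub-cluster 2, led by BCAS1 and GPR17, genes of cells that are about to myelinate, had 619, 770.4, 426 and 537 CPM of COL9A1 and 1259.5, 597, 739 and 537 CPM of COL11A1. Sub-cluster 1, with the myelin gene MOBP among its leading genes (13, 5, 8 and 57 nuclei), had 173, 289, 83.8 and 136 CPM of COL9A1 and 215, 193, 55.8 and 79.4 CPM of COL11A1. COL4A5 was the reverse, at 677, 642, 670.1 and 715 CPM in sub-cluster 1 against 154, 12.7, 48.6 and 39.4 CPM in sub-cluster 0. For all 3 genes the libraries of sub-cluster 1 did not overlap those of sub-clusters 0 and 2. Sub-cluster 3 (63 nuclei), with BMPER and DNAH10 among its leading genes, is not part of that comparison. With sub-clusters 0, 2 and 3 pooled, COL9A1 was at 481, 498, 344 and 466 CPM and COL11A1 at 814, 508, 447 and 474 CPM. Each value is below sub-clusters 0 and 2 of its library, so sub-cluster 3 was lower than both. Lower COL9A1 and COL11A1 were thus not particular to sub-cluster 1. Of the 83 nuclei of sub-cluster 1, 57 were in the LPS male library.

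**Figure D4:**
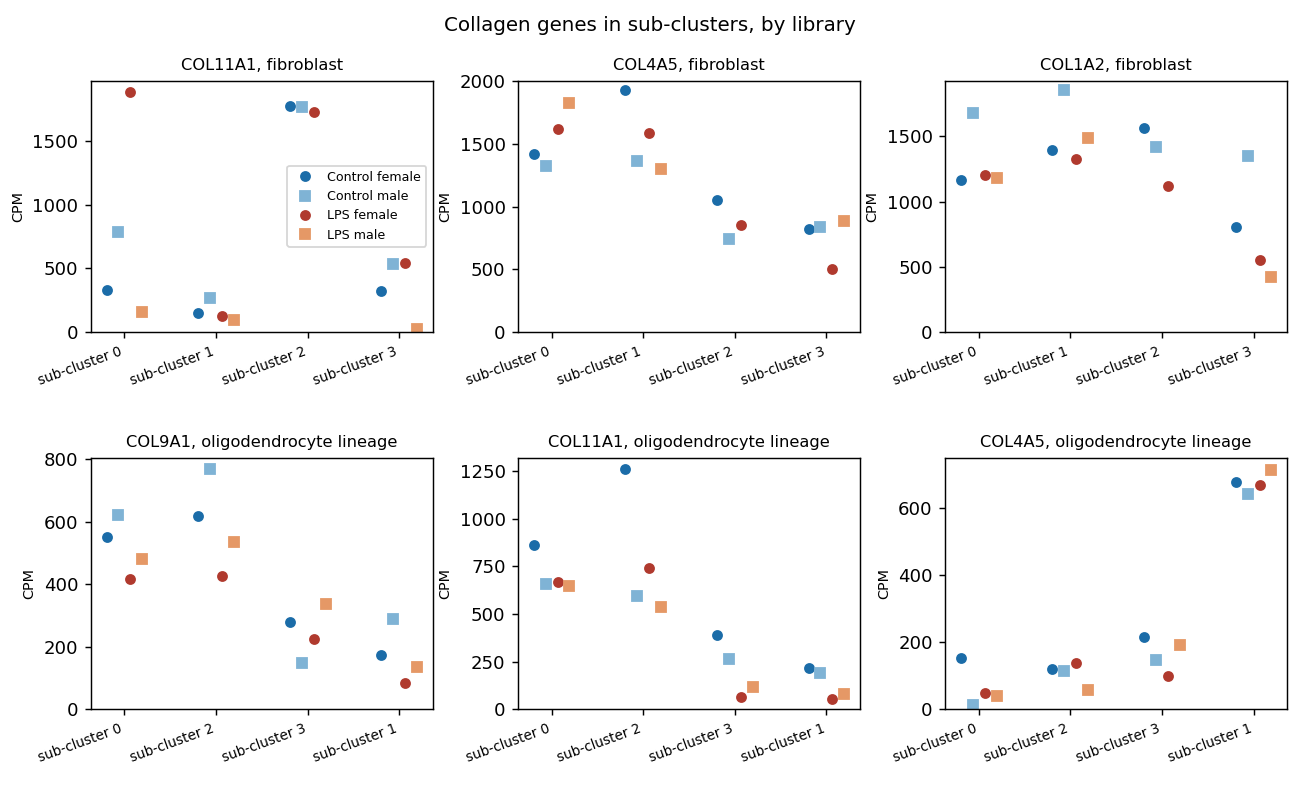
Level in CPM of COL11A1, COL4A5 and COL1A2 in fibroblast sub-clusters (upper row) and of COL9A1, COL11A1 and COL4A5 in oligodendrocyte lineage sub-clusters (lower row), with 1 point per library that has nuclei. COL11A1 is at about 1754 CPM in fibroblast sub-cluster 2, which has no LPS male nuclei, and COL4A5 is high in oligodendrocyte sub-cluster 1 of every library, where COL9A1 and COL11A1 are low.

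Levels of partner chains were set side by side as log2(mean CPM + 1) over 21 classes, which share libraries and free RNA, so r is a description. Over all 528 pairs of members the median r was 0.16, with quartiles of -0.13 and 0.40. The pairs COL1A1 and COL1A2 (0.97), COL4A1 and COL4A2 (0.95) and COL4A5 and COL4A6 (0.91) had the closest patterns of the partner chains. COL4A3 and COL4A4 (0.72), COL6A2 and COL6A3 (0.68), COL5A1 and COL5A2 (0.61) and COL9A1 and COL9A2 (0.53) were less alike. With COL6A1, r was 0.69 for COL6A2, its neighbour, and 0.35 for COL6A3. With COL9A3, r was -0.14 for COL9A1 and -0.31 for COL9A2. Neighbours in the RefSeq gene list (assembly T2T-MMU8v2.0, used for gene order only) included COL4A1 and COL4A2 and COL4A3 and COL4A4, given above. Of the other neighbours, COL3A1 and COL5A2 had an r of 0.88, COL6A5 and COL6A6 of 0.25 and COL9A1 and COL19A1 of -0.11.

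The remaining 13 members had between 11 and 687 UMIs in all nuclei. COL14A1, a FACIT collagen of soft connective tissue, was at 146, 506, 79.3 and 609 CPM in mural-like nuclei (26 UMIs) and 56.9, 119, 89.1 and 48.6 CPM in fibroblast-like nuclei. COL5A3 was at 36.6, 463, 198 and 76.2 CPM in mural-like nuclei (18 UMIs). COL8A1 and COL8A2, short-chain collagens of endothelium and cornea, had 322 and 16 UMIs, COL17A1, of skin anchoring, had 11, and COL2A1, the main cartilage chain, had 195.

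The LPS and Control fetuses were then compared in 8 sets of nuclei, on UMIs summed per fetus with the quasi-likelihood test of edgeR fitted to all genes. Both LPS fetuses were older (131 and 133 days) than the Control fetuses (130 days), which had no injection. LPS therefore cannot be told apart from gestational age or from the injection in any of these comparisons. A gene was called at an adjusted p under 0.1 and a log2 fold change over 0.25 in size. No collagen gene was called in any of the 8 sets, and edgeR called no gene at all in them (0% of the genes tested in each set). In data simulated with the spread of these libraries few 2-fold changes were called, so the absence of calls does not show equal levels. The number of members at an unadjusted p under 0.05 was 5 of 22 in fibroblast-like nuclei, 1 of 31 in all nuclei, 1 of 31 in the granule lineage, 1 of 9 in endothelial-like nuclei and 1 of 13 in the oligodendrocyte lineage. There was none among the 17 tested in committing granule, 16 in Bergmann glia-like and 18 in astrocyte-like nuclei. Of all genes tested in these 5 sets, 1.81, 0.229, 0.188, 0.813 and 0.978% were at that unadjusted p. DESeq2 called no collagen gene either, and had 3, 1, 2, 1 and 0 members at that unadjusted p in the 5 sets named first. The percentages above are by edgeR, so these counts by DESeq2 have no share of all genes beside them and are not read further. Over all genes DESeq2 called 4 in fibroblast-like nuclei and 1 in the oligodendrocyte lineage. Below, values that fail the test are given as values, and every adjusted p of a member by edgeR was 0.999 or above. In sums of this kind fewer nuclei of a kind and less RNA per nucleus cannot be told apart.

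In fibroblast-like nuclei, 8 of the 22 members tested were lower in both LPS libraries than in both Control libraries (COL1A2, COL3A1, COL4A2, COL5A2, COL6A3, COL9A1, COL12A1 and COL18A1), against 13.5% of all genes tested. COL25A1 was the 1 member higher in both, against 13.7% of all genes. In the empty droplets COL9A1 was at 45.4, 56.1, 23.8 and 45.0 CPM, also lower in both LPS libraries. The median log2 fold change of the 22 members was -0.43 and that of all genes -0.026. All collagens together were at 8940.0, 11789.7, 7971 and 7579.6 CPM. The LPS male library gave only 32 fibroblast-like nuclei and none in sub-cluster 2.

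Of the 4 members with the most UMIs in this class, COL12A1 was at 1332, 1917, 996 and 989 CPM, log2 fold change -0.74 ± 0.31 (SE), and COL1A2 at 1177, 1576, 952 and 965 CPM, log2 fold change -0.55 ± 0.30 (SE). For COL12A1 the log2 difference was -0.42 between the females and -0.95 between the males, and for COL1A2 it was -0.30 between the females and -0.71 between the males. Its partner COL1A1 was at 98, 154, 102 and 105 CPM, log2 fold change -0.31 ± 0.38 (SE), with overlapping groups. COL5A2 was at 1018, 1002, 972 and 835 CPM, log2 fold change -0.18 ± 0.29 (SE), and its partner COL5A1 at 198, 386, 143 and 259 CPM. COL4A5 overlapped between the groups, log2 fold change -0.081 ± 0.31 (SE), with -0.46 between the females and 0.36 between the males.

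The 5 members at an unadjusted p under 0.05, named after their values were seen, were COL3A1, COL6A3, COL12A1, COL18A1 and COL25A1. COL3A1 was at 651, 616, 439 and 332 CPM, log2 fold change -0.72 ± 0.31 (SE). COL6A3 had log2 fold change -1.29 ± 0.48 (SE) and COL18A1 log2 fold change -1.28 ± 0.47 (SE), and in both the Control male library stood far above the other 3. COL25A1 was at 23.7, 26.7, 76.6 and 81.1 CPM, log2 fold change 1.60 ± 0.45 (SE). In the empty droplets COL25A1 was at 107, 123, 95.1 and 351 CPM, above its fibroblast-like level in every library. COL11A1 was at 471, 902, 989 and 105 CPM, log2 fold change -0.26 ± 0.77 (SE), and was called without the LPS female library, at a log2 fold change of -2.74 and an adjusted p by edgeR of 0.00235, where the LPS arm is 1 library of 32 nuclei that lacks sub-cluster 2. There the spread comes from the 2 Control libraries, and the lone LPS library is assumed to vary like them. When only sub-clusters 0 and 1 were kept, a choice made after seeing the data, 5 of 19 members were lower in both LPS libraries (COL4A1, COL4A2, COL6A3, COL6A6 and COL12A1), against 14.3% of all genes, and 1 (COL6A2) was higher, against 12.1%. COL1A2, COL3A1, COL5A2 and COL18A1 then overlapped between the groups, and COL9A1 and COL25A1 had too few UMIs to be tested. COL1A2 was at 1255, 1735, 1264 and 1264 CPM and COL12A1 at 1592, 2223, 1557 and 1037 CPM there, so that the female libraries were nearly level for both. There all collagens together were at 10069, 12636, 11177 and 9189.6 CPM, with overlapping groups.

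**Figure D5:**
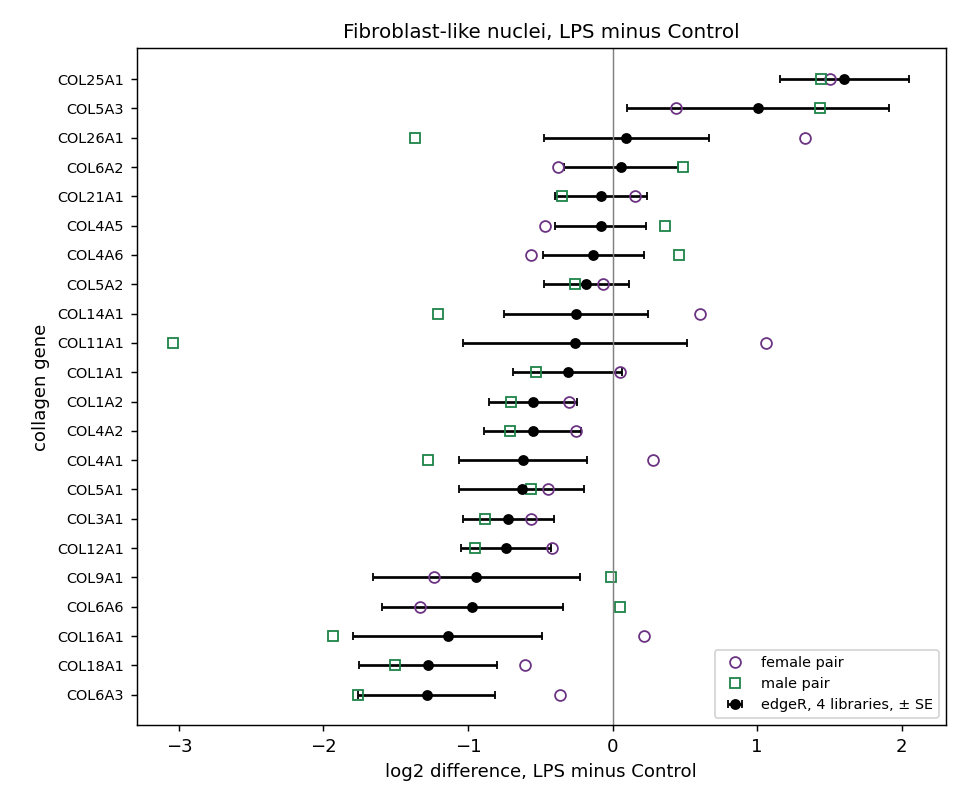
Log2 difference between LPS and Control (LPS minus Control) of the 22 collagen genes tested in fibroblast-like nuclei. Black points are the edgeR fold change over 4 libraries with its SE, open circles the female pair and open squares the male pair, and 18 of the 22 fold changes lie left of 0, while the female and male pairs lie on opposite sides of 0 for 11 genes, COL11A1, COL16A1 and COL26A1 among them.

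In endothelial-like nuclei (70, 73, 41 and 28), the 4 members with the most UMIs overlapped between the groups. COL4A1 was at 713, 1171, 855 and 890.1 CPM, log2 fold change -0.074 ± 0.40 (SE), and COL4A2 at 1121, 1455, 1344 and 1276 CPM, log2 fold change 0.059 ± 0.38 (SE). COL4A5 had log2 fold change -0.00057 ± 0.32 (SE). COL5A2 had log2 fold change 0.52 ± 0.50 (SE), but most of its UMIs were in the sub-cluster led by mural genes. With only sub-clusters 0 and 2 kept, a choice made after seeing the data, COL5A2 was at 4.19, 6.77, 28.6 and 0 CPM (8 UMIs) and was not tested. COL11A1, named after its values were seen, was the 1 of 9 members lower in both LPS libraries, against 13.3% of all genes (none was higher, against 9.43%), at 56.1, 79.3, 6.57 and 0 CPM from 48 UMIs. These were 29, 17, 2 and 0 UMIs, and when only sub-clusters 0 and 2 were kept it no longer had enough UMIs to be tested. In the empty droplets COL11A1 was at 46.1, 76.7, 24.4 and 42.4 CPM, near its Control levels here and also lower in both LPS libraries. The part of free RNA was not tested beyond a subtraction, which took 19.1, 16.7, 0 and 0% and left COL11A1 lower in both LPS libraries.

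In the granule lineage, COL25A1 was at 196, 120.5, 339 and 295 CPM, log2 fold change 0.98 ± 0.38 (SE), higher in both LPS libraries, with differences of 0.77 between the females and 1.26 between the males. In the empty droplets the groups overlapped, and at 107, 123, 95.1 and 351 CPM they were above the granule lineage in both male libraries and below it in both female ones. The part of free RNA in the male difference was not tested beyond a subtraction, which left COL25A1 higher in both LPS libraries. That subtraction used free RNA profiled in barcodes of at most 100 UMIs, not these empty droplets. COL8A1 and COL19A1 were also higher in both LPS libraries, so 3 of 31 members were, against 7.1% of all genes. COL9A1 and COL11A1 were lower in both, 2 of 31 against 5.1% of all genes. COL9A1 ranged from 25.7 to 40.6 CPM, and in empty droplets it was at 45.4, 56.1, 23.8 and 45.0 CPM. The empty droplets of both genes were likewise lower in both LPS libraries. The part of free RNA was not tested beyond the subtraction, which left both genes lower in both LPS libraries. COL11A1 was at 36.6, 46.8, 21.2 and 19.4 CPM, log2 fold change -1.03 ± 0.30 (SE) at an unadjusted p of 0.0185 by edgeR, and in empty droplets it was at 46.1, 76.7, 24.4 and 42.4 CPM. COL4A5 and COL4A2 had log2 fold change -0.19 ± 0.29 (SE) and log2 fold change -0.12 ± 0.28 (SE). COL21A1 went in opposite directions, with 1.39 between the females and -1.01 between the males. Of the granule nuclei, 835, 742, 756 and 322 were committing, where COL21A1 was high, and 630, 546, 373 and 1544 were mature, and in an alternative chosen after seeing the data the mature cluster was left out. COL21A1 was then at 56.5, 107, 153 and 64.6 CPM, still higher in the LPS female and lower in the LPS male than in the Control of the same sex. The part of the other stages in the result was not tested.

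In committing granule nuclei, where COL25A1, COL4A5 and COL21A1 were high, the groups overlapped for all 3. COL25A1 was at 949, 475, 1129 and 806 CPM, log2 fold change 0.44 ± 0.45 (SE), and COL4A5 at 1026, 772, 774 and 883 CPM, log2 fold change -0.11 ± 0.32 (SE). Its partner COL4A6 had log2 fold change 0.039 ± 0.48 (SE). COL21A1 was at 281, 519.5, 713 and 351 CPM, and COL4A2 had log2 fold change 0.048 ± 0.26 (SE). No member was higher in both LPS libraries, against 9.19% of all genes, and 2 of 17 (COL9A1 and COL11A1) were lower in both, against 9.26%. In the empty droplets, too, COL9A1 and COL11A1 were lower in both LPS libraries.

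In the oligodendrocyte lineage, COL9A1 was at 410.4, 420.5, 278 and 275 CPM, log2 fold change -0.59 ± 0.35 (SE), and COL11A1 at 663, 436, 354 and 289 CPM, log2 fold change -0.79 ± 0.41 (SE). Both were lower in both LPS libraries, with differences of -0.55 between the females and -0.61 between the males for COL9A1 and -0.90 between the females and -0.59 between the males for COL11A1. With COL4A1 and COL4A2, 4 of 13 members were lower in both, against 9.69% of all genes, and COL25A1 was higher in both, against 11.7%. The same 4, of 8 members tested, were lower without overlap when only sub-clusters 0, 2 and 3 were kept, against 11% of all genes. In them COL9A1 was at 481, 498, 344 and 466 CPM and COL11A1 at 814, 508, 447 and 474 CPM, and for both genes the males lay closer together than in the whole lineage. The choice of these sub-clusters, made after seeing the data, leaves out sub-cluster 1 and the sub-clusters of mixed and cycling nuclei. COL25A1 was at 41.2, 19.1, 66 and 91.6 CPM, log2 fold change 1.26 ± 0.50 (SE), below its level in the empty droplets of every library. COL4A5 had log2 fold change 0.37 ± 0.44 (SE), with -0.45 between the females and 1.21 between the males.

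In Bergmann glia-like nuclei COL4A5 had log2 fold change -0.00052 ± 0.30 (SE), COL5A1 log2 fold change -0.22 ± 0.52 (SE), COL9A1 log2 fold change 1.07 ± 0.71 (SE) and COL5A2 log2 fold change 0.14 ± 0.36 (SE). COL21A1 was the 1 of 16 members higher in both LPS libraries, against 9.07% of all genes, and none was lower, against 7.6%. In astrocyte-like nuclei COL4A5 had log2 fold change -0.24 ± 0.32 (SE), COL5A1 log2 fold change 0.038 ± 0.58 (SE), COL4A2 log2 fold change -0.37 ± 0.45 (SE) and COL9A1 log2 fold change 0.92 ± 0.57 (SE). There 4 of 18 members (COL5A2, COL5A3, COL12A1 and COL25A1) were higher in both LPS libraries, against 9.69% of all genes, and 2 (COL4A5 and COL21A1) were lower, against 8.02%. COL25A1 was at 47.9, 35.7, 53.3 and 87.4 CPM there, below its level in the empty droplets of every library, and no longer separated the groups with free RNA subtracted. In both male libraries, 11 of 16 members were higher than in both female ones in Bergmann glia-like nuclei, against 39.9% of all genes, and 8 of 18 in astrocyte-like nuclei, against 40.7%.

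Over all nuclei, COL25A1 was at 156, 89.8, 263 and 251 CPM, log2 fold change 1.05 ± 0.39 (SE) at an unadjusted p of 0.0442 by edgeR. COL4A5 was at 208, 214, 193 and 169 CPM, log2 fold change -0.21 ± 0.25 (SE), and was lower in both LPS libraries. COL4A2 and COL4A1 had log2 fold change -0.21 ± 0.29 (SE) and log2 fold change -0.41 ± 0.39 (SE). In all, 4 of 31 members were higher and 3 were lower in both LPS libraries, against the 7.11% and 5.51% of all genes given above.

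The genes that make and crosslink collagen (34 listed, 31 measured) and the collagen receptors and degrading enzymes (24 listed, 22 measured) had no call in any of the 8 sets either. In fibroblast-like nuclei 2 of the 27 tested making genes were higher and 2 lower in both LPS libraries, and 1 of the 14 tested receptor and enzyme genes was higher and 4 were lower, against 13.7% higher and 13.5% lower of all genes. SPARC, a collagen chaperone, was at 292, 108, 330.0 and 56.7 CPM there, ADAMTS2, which trims fibrillar procollagens, at 186, 249, 179.6 and 195 CPM and CREB3L1, a transcription factor of collagen secretion, at 129.6, 149.9, 138 and 219 CPM. MMP16, a membrane matrix metalloproteinase, was at 757, 395, 696 and 397 CPM, the collagen receptor DDR2 at 474, 387, 430.2 and 462 CPM and FAP, a protease of activated fibroblasts, at 327, 279, 209 and 162 CPM. SPARC and MMP16 were higher in both female libraries, and FAP was lower in both LPS libraries.

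In endothelial-like nuclei the leading genes of both lists were SPARC, the collagen chaperone SERPINH1 and TLL1, and MMP16, the integrin chain ITGB1 and the inhibitor TIMP3. TIMP3 was at 119.8, 98, 411 and 161 CPM, higher in both LPS libraries. So were 2 of the 6 tested receptor and enzyme genes and none of the 9 tested making genes, while 1 of each was lower, against 9.43% higher and 13.3% lower of all genes. In the granule lineage TLL1, a protease that trims procollagen, was at 777, 600.2, 795 and 696 CPM and MMP16 at 889, 508, 889 and 536 CPM, the latter again higher in both female libraries. MIA3, which loads collagen for export, was at 60.3, 72.9, 65.5 and 76.3 CPM and P3H4, a partner of the prolyl hydroxylases, at 51.7, 66.7, 62 and 77.5 CPM. ADGRG1, a receptor of type III collagen, was at 82.1, 99, 92.7 and 58.3 CPM and TIMP3 at 82.4, 70.1, 108 and 47.3 CPM, with overlapping groups for all 4. In committing granule nuclei TLL1 was at 110.1, 119.6, 289 and 142 CPM, higher in both LPS libraries, as were 4 of the 27 tested making genes against 9.19% of all genes. In the oligodendrocyte lineage MMP16 was at 3620.4, 1729.7, 3112 and 1146 CPM.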

How the data were processed

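The authors prepared nuclei from frozen cerebellar hemispheres and part of the vermis with the 10x Genomics 3′ kit (v3.1 chemistry) and deposited 1 unfiltered matrix of UMI counts per fetus, with no normalization. The submitters' processing notes name Cell Ranger 4 and the build Mmul_8.0.1, while the labels' protocol names Cell Ranger 5.0. Cell annotations were not used here.

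Barcodes that held 500 genes or more and no more than 5% of mitochondrial UMIs were kept. In each library barcodes were ranked by UMIs, the first ones up to 3 times the number of nuclei were passed over, and as many as there were nuclei were then taken as empty droplets. Scrublet (scanpy 1.11.5, Python 3.11.15) marked doublets, which were kept in the main values. Its automatic threshold marked none in either male library, so the median of the other thresholds was used there. Nuclei were clustered in Seurat 5.3.0 (R 4.3.3) on 2000 variable genes and 30 dimensions at resolution 0.5, with 41 collagen rows left out, 8 of them listed by identifier only. Clusters were named from marker lists, and fibroblast, endothelial and oligodendrocyte nuclei were clustered again on 10 dimensions. The fibroblast sub-cluster with mural markers was moved to a class of its own.

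UMI counts were summed per fetus and class and given as CPM, the counts per 1000000 UMIs of that class and library. edgeR 4.0.16 (filterByExpr, TMM, quasi-likelihood test, Benjamini-Hochberg over all genes tested) compared LPS with Control, and DESeq2 1.42.0 was an alternative. Scripts were checked on simulated data, with the spread between libraries taken from the real sums. The test then called 0, 2, 4 and 5 of 100 genes changed 2-fold in the granule lineage, committing granule, fibroblast-like and oligodendrocyte lineage nuclei. Of 100 genes changed 4-fold it called 14, 43, 40 and 46. The absence of a call therefore does not show that a gene was unchanged. Within each sex, log2 differences used a pseudocount of 5 CPM. Levels across classes were not tested. The fetus was the replicate, with 2 in each group, 1 female and 1 male. The main test had no term for sex, so its p-values weigh LPS against a spread that includes the difference in sex and depth.

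The text gives the 20 members with the most UMIs in their highest class, partner chains side by side, and in each tested set every called member and the 4 with the most UMIs. Of the pathway lists it gives leading members by UMIs. The members and lists were chosen with earlier results of these data known. No sequences are shown.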

Additional observations from a re-analysis of the deposited data

Results flagged for a closer look

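For some of the 4 members with the most UMIs in a tested set, the LPS minus Control difference in log2(CPM + 5) had one sign in the female pair and the other in the male pair, with both at least 0.25 in size. Each pair is 1 library against 1 library, so none of these differences between the sexes was tested, and sex cannot be told apart from depth. Given as the male minus the female difference, COL21A1 was at -2.40 in the granule lineage (1.39 in females, -1.01 in males) and -1.89 in committing granule nuclei (1.33 and -0.56). COL4A5 was at 0.83 in fibroblast-like nuclei (-0.46 and 0.36), 0.99 in endothelial-like nuclei (-0.46 and 0.53) and 1.66 in the oligodendrocyte lineage (-0.45 and 1.21). In the last, the sub-cluster with high COL4A5 had 57 of its 83 nuclei in the LPS male library. COL9A1 was at 2.17 in Bergmann glia-like nuclei (-0.47 and 1.71), where the LPS male library alone was high. COL4A1 was at -0.65 in endothelial-like nuclei (0.26 and -0.39) and COL5A1 at 0.85 in astrocyte-like nuclei (-0.55 and 0.30).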

How the results depend on the processing

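No collagen gene was called under any alternative that kept all 4 libraries, in any of the 8 sets. The main test missed most 4-fold changes in each set simulated, so this does not show equal levels. Leaving out 1 library gave 0 to 1 called members in fibroblast-like nuclei (COL11A1, without the LPS female library) and 0 in the others. Over all genes, of which edgeR called 0 in every set as reported, the count depended on the setting. Without the filter on low counts it was 37 in fibroblast-like nuclei, 10 in endothelial-like, 10 in Bergmann glia-like, 8 in astrocyte-like and 8 in committing granule nuclei and 9 in the oligodendrocyte lineage. With sex as a block it was 6 in fibroblast-like, 1 in endothelial-like and 2 in committing granule nuclei and 16 in the oligodendrocyte lineage. Leaving out 1 library gave up to 77 in fibroblast-like nuclei and 45 without the LPS female library, 59 in endothelial-like and 66 in astrocyte-like nuclei without the Control female library, 23 in Bergmann glia-like nuclei without the LPS male library and 28 in the oligodendrocyte lineage without the LPS female library. The 77 were without the LPS male library. The labels pair no fetuses by number, so sex was used as the replicate block, which gave 0 called members in all 8 sets. The lists of members without overlap also changed. In fibroblast-like nuclei COL5A2 and COL9A1 left and COL6A6 entered with doublets removed and with free RNA subtracted. Neither setting altered the LPS male library there, which kept its 32 nuclei and had 0% subtracted as free RNA. The Control female, Control male and LPS female libraries had 16.4, 11.6 and 20.6% subtracted. In Bergmann glia-like nuclei COL21A1 left with either setting. In the granule lineage COL8A1 left and COL4A4 entered in nuclei with at least 1000 genes and with free RNA subtracted. COL19A1 also left there with free RNA subtracted. In astrocyte-like nuclei COL5A3 left under all 3 settings and COL4A5 with doublets removed. COL4A2 left in the oligodendrocyte lineage with doublets removed and in nuclei with at least 1000 genes, and COL12A1 entered as higher in committing granule nuclei in nuclei with at least 1000 genes and with free RNA subtracted.

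Of 270 fold changes under settings that kept all libraries, 254 kept their direction and 16 did not. None of these values passed the test and the cause was not tested. With clusters left out after seeing the data, the log2 fold change was 0.043 for COL4A2 in the granule lineage, 0.15 for COL4A5 and 0.038 for COL5A2 in fibroblast-like nuclei, -0.12 for COL4A2 in endothelial-like nuclei and -0.58 for COL4A5 in the oligodendrocyte lineage. COL4A2 in endothelial-like nuclei was at -0.0010 with doublets removed and -0.16 with free RNA subtracted (from Control only). COL4A5 in these nuclei was at 0.044 with DESeq2, 0.019 with DESeq2 size factors and 0.020 in nuclei with at least 1000 genes. With free RNA subtracted, again from Control only, COL4A5 was at 0.48. COL4A5 in Bergmann glia-like nuclei was at 0.00057, 0.00087, 0.0072 and 0.067 with DESeq2, its size factors, the number of nuclei of the study and free RNA subtracted. COL5A1 in astrocyte-like nuclei was at -0.12 with sex as a block.

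Leaving out 1 library turned the direction in 25 fits and kept it in 103. In committing granule nuclei the range was -0.19 to 0.90 for COL21A1, -0.086 to 0.15 for COL4A2 and -0.34 to 0.17 for COL4A5. In the granule lineage the range was -0.68 to 0.97 for COL21A1 and -0.26 to 0.029 for COL4A2. In all nuclei the range was -0.80 to 0.14 for COL4A1 and -0.43 to 0.066 for COL4A2. In endothelial-like nuclei the range was -0.30 to 0.27 for COL4A1, -0.058 to 0.21 for COL4A2 and -0.26 to 0.30 for COL4A5. In astrocyte-like nuclei the range was -1.02 to 0.072 for COL4A2, -1.02 to 0.64 for COL5A1 and -0.17 to 1.53 for COL9A1. In Bergmann glia-like nuclei the range was -0.087 to 0.068 for COL4A5, -0.88 to 0.43 for COL5A1 and -0.57 to 1.82 for COL9A1. In fibroblast-like nuclei the range was -0.31 to 0.15 for COL4A5. In the oligodendrocyte lineage the range was -0.14 to 0.88 for COL4A5. The direction held in the rest. COL11A1 ranged from -1.13 to -0.36, COL4A2 from -0.47 to -0.19 and COL9A1 from -0.68 to -0.53 in the oligodendrocyte lineage. COL12A1 ranged from -0.95 to -0.47 and COL1A2 from -0.72 to -0.34 in fibroblast-like nuclei. For COL25A1 it was 0.67 to 1.61 in all nuclei, 0.63 to 1.48 in the granule lineage and 0.0018 to 1.10 in committing granule nuclei. For COL4A5 it was -0.31 to -0.12 in all nuclei, -0.38 to -0.13 in astrocyte-like nuclei and -0.38 to -0.024 in the granule lineage. For COL5A2 it was 0.056 to 0.21 in Bergmann glia-like nuclei, 0.21 to 0.91 in endothelial-like nuclei and -0.32 to -0.047 in fibroblast-like nuclei. Of the levels, COL5A2 in fibroblast-like nuclei went from a mean of 956 to 1062 CPM with doublets removed and 1089 CPM with free RNA subtracted. The highest class stayed the same for 20 of 20 members except without the Control male library (18; COL5A1 and COL9A1 changed) and without the LPS male library (16; COL4A1, COL4A2, COL16A1 and COL19A1 changed). Free RNA was not subtracted in the set of all nuclei. The precision of classes with few nuclei, mural-like and choroid or ependymal above all, is limited by their UMIs.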

Other observations

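A further 8 collagen genes are listed by identifier only and were matched to symbols in the gene name table. COL15A1, a basement membrane collagen related to COL18A1, was at 690.5, 642, 443 and 770.1 CPM in fibroblast-like nuclei, and COL13A1, a transmembrane collagen, at 509, 457, 291 and 478 CPM. In Bergmann glia-like nuclei COL22A1 was at 33.8, 35, 14.6 and 50.6 CPM, COL23A1 at 37.2, 41.5, 17.4 and 43.8 CPM and the fibrillar chain COL27A1 at 31.8, 59.3, 26.3 and 85.7 CPM, and all 3 were lowest in the LPS female library. COL20A1 was at 7.05, 9.56, 8.68 and 34.3 CPM in the oligodendrocyte lineage. COL6A1 and COL9A3 are given with their partner chains above. None of these genes took part in the clustering, and their levels were not tested.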
